A study of Mus musculus with 6 samples.

Results

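The genes described here encode 10 peptide precursors of sensory neurons: Calca, Calcb, Tac1, Adcyap1, Gal, Npy, Nppb, Sst, Vip and Cartpt. They were taken by symbol from a table of 45703 genes, and each symbol matched 1 row. RNA sequencing had been done on 6 biological replicates of a primary culture from dorsal root ganglia (DRG), which hold the cell bodies of sensory neurons with their glia. The mice were wild type, of the C57BL/6 strain and 4 to 6 weeks old. Cells of all 6 were grown for 7 days in vitro on 10% fetal calf serum plus EGF and FGF (10 ng/ml), and each RNA sample came from 2 dishes. There was a single group, with no uninjured or freshly isolated ganglion beside it, so that neither loss nor induction of a peptide in culture could be measured, and "injury-induced" is used only as the usual name of these genes.

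Neuropeptides are made as long precursors, cut by proprotein convertases, trimmed and amidated inside dense-core vesicles, and released from these vesicles on stimulation. In the DRG, the CGRP peptides, substance P and PACAP mark the peptidergic nociceptors, neurons that respond to painful stimuli and whose endings also dilate vessels. Galanin, neuropeptide Y and vasoactive intestinal peptide are scarce in intact ganglia of rodents and are known to rise in neurons whose axons have been cut, as happens to every neuron when ganglia are dissected and dissociated. Somatostatin and the natriuretic peptide of Nppb are known from a class of itch neurons.

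The regulatory sequences of the genes are shown first because several of these peptides are textbook targets of cyclic AMP signalling through the cyclic AMP response element (CRE). Of the 10 genes, 9 had an entry in the RefSeq promoter table for GRCm38.p6 and Calcb had none. The 250 bases before the start site given in that table were searched on both strands for the full element TGACGTCA, its core TGACG, the AP-1 element TGANTCA and TATAAA. Each full element also holds the core on both strands. The 150 bases before that start site are printed 5′ to 3′ on the gene's own strand for the highest of the 10 genes (Calca), for both genes with the full element (Cartpt and Sst), and for the other gene without a count (Vip). Capitals mark each full element or core.
Calca: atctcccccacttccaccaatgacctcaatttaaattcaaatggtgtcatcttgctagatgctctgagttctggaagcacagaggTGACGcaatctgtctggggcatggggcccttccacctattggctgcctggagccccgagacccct
Cartpt: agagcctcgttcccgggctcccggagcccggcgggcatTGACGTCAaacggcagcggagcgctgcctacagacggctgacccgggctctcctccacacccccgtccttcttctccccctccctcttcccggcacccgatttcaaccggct
Sst: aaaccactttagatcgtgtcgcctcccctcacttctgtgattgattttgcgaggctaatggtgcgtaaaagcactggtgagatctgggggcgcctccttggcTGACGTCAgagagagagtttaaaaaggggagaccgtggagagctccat
Vip: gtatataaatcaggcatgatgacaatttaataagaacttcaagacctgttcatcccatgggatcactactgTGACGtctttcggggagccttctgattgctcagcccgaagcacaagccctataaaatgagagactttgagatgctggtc
These windows were chr7:114636358-114636507 on the minus strand for Calca, chr13:99900684-99900833 on the minus strand for Cartpt, chr16:23890845-23890994 on the minus strand for Sst and chr10:5639068-5639217 on the plus strand for Vip. All 4 lie wholly or partly within the outer limits of the gene in the count table, because the start site of the RefSeq table was 553 bases inside that limit for Calca, 9496 for Cartpt, 498 for Sst and 25 for Vip. It was also inside for Nppb and Adcyap1, and at the limit itself for Tac1, Npy and Gal. The full element began 112 bases before the start in Cartpt and 48 bases before it in Sst, and was found in 1.55% of the 32851 promoters in the table. The core began 65 bases before the start in Calca and 79 bases before it in Vip, and also occurred in Tac1 and Adcyap1, against 17.8% of all promoters. No window of the 9 genes held the AP-1 element (6.75% of all promoters), and TATAAA was present in Nppb, Vip and Adcyap1 (12.4% of all promoters). The full element was thus present both in a gene that was counted in every culture and in a gene that was not counted at all, as the levels given next show. A match of letters is a description and does not show that a factor binds there.

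The libraries held 20070639 to 22968642 counts. The culture was mixed. All 12 genes of a neuron list (Tubb3, Stmn2, Prph, Snap25, Uchl1, Elavl4, Nefl, Nefm, Syt1, Rbfox3, Avil and Isl1) reached a CPM (the usual count scaled to the total of its library) of at least 1 in all 6 libraries, and so did all 5 genes of a glia list and all 5 of a fibroblast list. Summed over a list, neuron genes took 1099 CPM in replicate 5, their lowest, and 2396 CPM in replicate 3, their highest, and glia genes 4094 to 5928 CPM. Fibroblast genes took 1457 CPM in replicate 1, their lowest, against 10068 CPM in replicate 5, and macrophage genes 11.7 and 111 CPM in the same replicates. In a list of 8 genes of other organs, 7 had at most 3 counts in every library. Cells of a type being fewer and each holding less RNA cannot be told apart in such bulk libraries.

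Of the 10 neuropeptide genes, 7 reached a CPM of at least 1 in all 6 cultures, against 30.4% of all genes in the table and 55.8% of protein-coding genes. The eighth, Npy, fell short in replicate 2 alone. Sst and Vip had no count in any library. Summed over the 10 genes, the level was 254 ± 58.6 CPM (SD, n = 6), lowest in replicate 2 (169 CPM) and highest in replicate 3 (347 CPM). Calca and Adcyap1 together held 75.9% to 80.9% of that sum. Per kilobase of combined exon length, the median of the 10 genes was 5.77 CPM per kb, between the median of 0.0177 for all genes of the table and that of 8.11 for genes detected in all cultures.

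**Figure D1:**
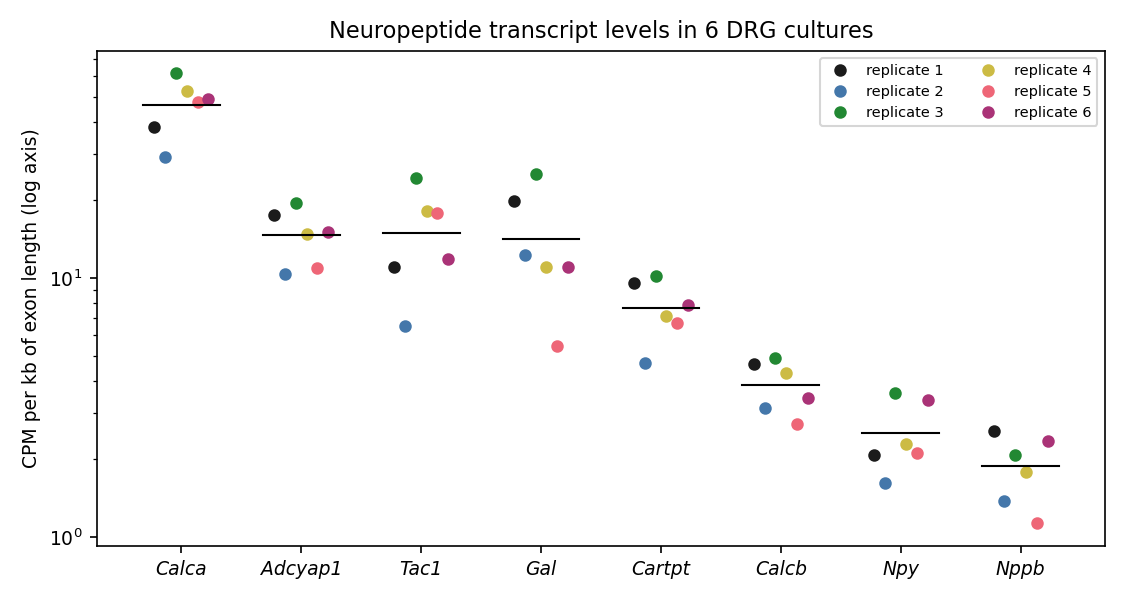
CPM per kb of exon length (log axis) of the 8 counted genes in each of 6 cultures; points are cultures and bars the mean of 6. Calca lay highest, at 29.4 to 61.7 CPM per kb, Adcyap1, Tac1 and Gal overlapped near a mean of 14 to 15, and Npy and Nppb lay lowest; Sst and Vip, without a count, are not drawn.

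Calca, on the minus strand of chromosome 7 (114625981 to 114636910, GRCm38.p6, combined exon length 2319 bases), gives either calcitonin or, in neurons, the alpha form of calcitonin gene-related peptide (CGRP), a strong vasodilator. It had 88.4, 68.2, 143, 122, 111 and 114 CPM in replicates 1 to 6. Replicates 1 and 2 were low and replicate 3 was high, a range of 2.10-fold. Its mean of 46.4 ± 11.3 CPM per kb (SD, n = 6) exceeded 90.0% of the genes detected in all cultures. Counts per gene do not separate the calcitonin from the CGRP transcript.

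Calcb, its neighbour on the opposite strand (chromosome 7, 114716555 to 114723368, exon length 3446 bases), encodes the beta form of CGRP. It had 16.0, 10.8, 16.9, 14.8, 9.36 and 11.8 CPM in replicates 1 to 6. Here replicate 1 was among the high cultures and replicate 5 was the lowest, an order unlike that of Calca. Per kb, Calca exceeded Calcb by 8.22-fold to 17.5-fold within a library, least in replicate 1 and most in replicate 5. All 10 genes had whole-number counts in every library, whereas 13.4% to 14.7% of the values of a library in the whole table were fractions, so no read divided between the 2 CGRP genes or with other genes was visible here.

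Tac1 (chromosome 6, 7555061 to 7562978, plus strand, exon length 1326 bases) encodes substance P and neurokinin A, the tachykinins of nociceptors. Its levels were 14.6, 8.65, 32.3, 24.1, 23.7 and 15.6 CPM in replicates 1 to 6. Replicates 3, 4 and 5 were high and replicate 2 was lowest, a 3.73-fold range.

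Adcyap1 (chromosome 17, 93198245 to 93206541, plus strand) encodes PACAP, a peptide that raises cyclic AMP in its target cells. It had 108, 63.98, 120, 91.3, 67.3 and 92.6 CPM in replicates 1 to 6. Replicates 2 and 5 were low, the same 2 libraries that had the lowest neuron scores. In CPM it stood close to Calca, but its combined exon length of 6163 bases placed it at 14.7 ± 3.58 CPM per kb (SD, n = 6).

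Cartpt (chromosome 13, 99898483 to 99910179, minus strand, exon length 997 bases), the precursor of the CART peptides, had 9.53, 4.69, 10.1, 7.08, 6.69 and 7.84 CPM in replicates 1 to 6. Replicate 2 was lowest and replicates 1 and 3 were highest. The mean was 7.68 ± 1.99 CPM per kb (SD, n = 6).

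Of Gal, Npy and Vip, the genes named above for nerve injury, Gal was the highest. Gal (chromosome 19, 3409915 to 3414544, minus strand, exon length 788 bases), the galanin precursor, had 15.6, 9.70, 19.8, 8.67, 4.30 and 8.65 CPM in replicates 1 to 6. Replicates 1 and 3 were high and replicate 5 low, and its 4.62-fold range was the widest of the 8 counted genes. Npy (chromosome 6, 49822710 to 49829507, plus strand, exon length 566 bases), the precursor of neuropeptide Y, had 1.18, 0.911, 2.03, 1.30, 1.19 and 1.91 CPM, from 20 to 44 counts a library, with replicates 3 and 6 high. Vip (chromosome 10, 5639193 to 5647617, exon length 1555 bases), the precursor of vasoactive intestinal peptide, had 0 of 128512422 counts. A count of 0 allows up to 3 counts a library, or 0.131 to 0.149 CPM, so Npy was at least 18.3-fold higher than Vip per kb in the library with the smallest ratio. Such limits cover counting error only.

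Of the itch neuron peptides, Nppb (chromosome 4, 147985786 to 147987205, plus strand, exon length 1226 bases) had 3.13, 1.68, 2.54, 2.19, 1.39 and 2.87 CPM in replicates 1 to 6, from 29 to 72 counts, with replicates 2 and 5 low. Sst (chromosome 16, 23889573 to 23891342, exon length 968 bases) had 0 of 128512422 counts, and Nppb was at least 7.63-fold higher per kb. In the list of other genes of these itch neurons, 3 of 5 passed a CPM of at least 1 in all cultures. Npy2r, a receptor for neuropeptide Y, averaged 8.03 ± 2.78 CPM and Il31ra, the interleukin 31 receptor, 4.82 ± 2.66 CPM (SD, n = 6). Osmr, which pairs with Il31ra and is also made by non-neuronal cells, averaged 127 ± 22.96 CPM (SD, n = 6). Htr1f and Cysltr2 averaged 0.786 ± 0.479 and 0.815 ± 0.344 CPM (SD, n = 6).

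The order of the levels was compared within libraries on the scale of log2(CPM per kb + 0.1). Of the 28 pairs of the 8 counted genes, 23 differed in the same direction in all 6 libraries. Each had the smallest p this design allows (two-sided exact sign-flip permutation test, p = 0.031, adjusted over the 28 pairs 0.0380). Any pair with a constant direction has that p, and genes with well-separated levels keep their order. The count thus describes how the levels were spaced, and the share among pairs of other genes was not computed. From high to low the order was Calca, Adcyap1, Tac1, Gal, Cartpt, Calcb, Npy and Nppb. Calca exceeded Adcyap1 by 1.65 ± 0.333 (log2, SD, n = 6), a 3.14-fold difference. Cartpt exceeded Calcb by 0.97 ± 0.271 and Calcb exceeded Npy by 0.62 ± 0.418, each in 6 of 6 libraries, the latter by as little as 0.02 in the closest library.

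The differences between the other neighbours in the order did not pass the test. Adcyap1 minus Tac1 was 0.06 ± 0.576, with Adcyap1 higher in 3 of 6 libraries (exact sign-flip p = 0.781, adjusted 0.810), and Tac1 minus Gal was 0.12 ± 0.983, again with 3 of 6 (exact p = 0.875, adjusted 0.875). Adcyap1 minus Gal, which are not neighbours, was 0.18 ± 0.527 (exact p = 0.438, adjusted 0.471). Gal exceeded Cartpt by 0.75 ± 0.63 in 5 of 6 libraries, the exception being replicate 5 (exact p = 0.0625, adjusted 0.0729). Npy exceeded Nppb by 0.40 ± 0.414 in 5 of 6 libraries, the exception being replicate 1 (exact p = 0.0938, adjusted 0.105). The spread of these differences was wide, and Tac1 minus Gal ran from -0.91 to 1.69 over the 6 cultures.

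**Figure D2:**
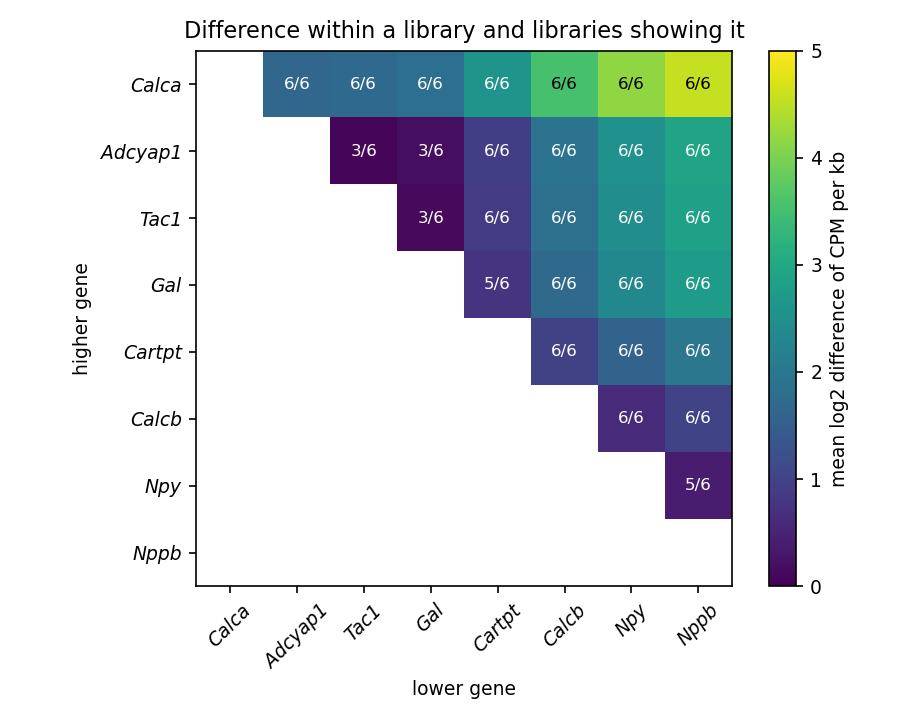
Mean log2 difference of CPM per kb (colour) between the gene of the row and the gene of the column, with the number of 6 libraries in which the row gene was higher. The 5 pairs under 6 of 6 are Adcyap1 with Tac1 and with Gal, Tac1 with Gal, Gal with Cartpt, and Npy with Nppb.

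The division by exon length set part of this order. In CPM alone, Calca exceeded Adcyap1 in 5 of 6 libraries, by 0.25 ± 0.334 on the log2 scale (SD, n = 6), which did not pass (exact sign-flip permutation p = 0.125, adjusted 0.140), with Adcyap1 higher in replicate 1. In CPM, Adcyap1 then exceeded Tac1 in 6 of 6 libraries by 2.27 ± 0.578 (exact p = 0.031, adjusted 0.0380). Nppb also exceeded Npy in 6 of 6, by 0.66 ± 0.410 (exact p = 0.031, adjusted 0.0380), the opposite of the order per kb. Calcb and Cartpt changed places fully. In CPM, Calcb exceeded Cartpt in 6 of 6 libraries, by 0.80 ± 0.272 (exact sign-flip p = 0.031, adjusted 0.0380), whereas per kb Cartpt was higher in 6 of 6.

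All 8 counted genes varied between cultures by more than counting noise (chi-square test of the 6 counts over 14998 genes, Benjamini-Hochberg adjusted p under 0.05), as did 76.3% of all genes tested. The largest adjusted p was that of Npy, 0.0191, and Nppb followed at 0.000951. The coefficient of variation was 22.9% for Calcb, 24.4% for Adcyap1, 24.4% for Calca, 25.9% for Cartpt, 29.5% for Nppb, 31.5% for Npy, 42.7% for Tac1 and 50.3% for Gal. Without replicate 2 or without replicate 3, Npy did not pass, and 7 genes did.

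The next question was whether these levels followed the amount of neuronal transcript. A neuron score was the mean of log2(CPM + 0.1) over the 12 neuron genes, none of them a neuropeptide, with libraries scaled by the trimmed mean of M-values (TMM). All 8 genes had a positive correlation with it over the 6 cultures, and 5 had an unadjusted exact permutation p under 0.05, against 6.34% of all 14998 genes. None passed after Benjamini-Hochberg adjustment over the 14998 genes. The smallest p that 720 pairings can give is 0.00139, so a gene could pass only if many others had very small p too. Not passing therefore does not show that a relation is absent. Adcyap1 followed the score most closely, with r = 0.983 by Pearson's method (exact permutation p = 0.00278, adjusted 0.219) and rho = 0.943 by Spearman's (exact p = 0.0167, adjusted 0.308). Replicates 2 and 5 lay farthest from the median score, and without them r was 0.938.

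Calcb, Cartpt, Nppb and Gal followed the score less closely. Calcb had r = 0.875 (exact permutation p = 0.0250, adjusted 0.382) and rho = 0.943 (exact p = 0.0167, adjusted 0.308). Cartpt had r = 0.871 (exact permutation p = 0.0292, adjusted 0.391) and rho = 0.943 (exact p = 0.0167, adjusted 0.308). Nppb had r = 0.852 (exact permutation p = 0.0389, adjusted 0.418) and Gal r = 0.831 (exact permutation p = 0.0333, adjusted 0.403), both with rho = 0.83 (exact p = 0.0583, adjusted 0.444). Without replicates 2 and 5, r was 0.900 for Cartpt, 0.900 for Gal, 0.514 for Calcb and 0.245 for Nppb. Those libraries had the lowest scores, and leaving them out narrows the range of the score. A lower r there cannot show that a relation rested on them. With 1 culture left out, r was at least 0.786 for Calcb and at least 0.744 for Nppb. Only Adcyap1 kept an unadjusted exact p under 0.05 when each of the 6 cultures was left out in turn.

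The other 3 genes did not pass even before adjustment. Npy had r = 0.750 (exact permutation p = 0.101, adjusted 0.558) and rho = 0.771 (exact p = 0.103, adjusted 0.511). Calca had r = 0.545 (exact permutation p = 0.263, adjusted 0.717) and rho = 0.486 (exact p = 0.356, adjusted 0.784). Tac1 had r = 0.417 (exact permutation p = 0.425, adjusted 0.807) and rho = 0.314 (exact p = 0.564, adjusted 0.865). Without replicates 2 and 5, r was 0.539 for Npy, 0.304 for Calca and 0.414 for Tac1. Single libraries moved these values: for Tac1, r was 0.0383 without replicate 2, 0.0628 without replicate 3 and 0.785 without replicate 5. For Calca, it was 0.254 without replicate 2, 0.289 without replicate 3 and 0.770 without replicate 5.

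Taking the neuron score away from each gene, library by library, showed how far a gene departed from it. The SD over cultures of Adcyap1 fell from 0.352 to 0.0855 (log2), and its level relative to the score stayed between 0.06 and 0.28. For Calca the SD was 0.356 before and 0.364 after, and its level relative to the score ran from -0.07 in replicate 1 to 0.99 in replicate 5. Tac1 moved the same way, from -2.71 in replicate 2 to -1.22 in replicate 5. Gal moved the other way, from values of -2.54 to -2.56 in replicates 1 to 3 to -3.66 in replicate 5. Replicate 5 did not stand alone in this. Gal was also low in replicates 4 and 6, at -3.15 and -3.31. Calca, at 0.65 and 0.39 in replicates 4 and 6, was higher there than in replicates 1 to 3. In replicate 5, then, a unit of neuron score went with relatively more Calca and Tac1 transcript and less Gal transcript than in replicates 1 and 2. The rise was not particular to Calca and Tac1: Adcyap1 (0.28), Cartpt (-3.03) and Npy (-5.42) also had their highest relative level there. For Npy, replicate 6 was close, at -5.43. Calcb, Nppb and Gal were not highest in replicate 5, the library with the lowest neuron score.

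**Figure D3:**
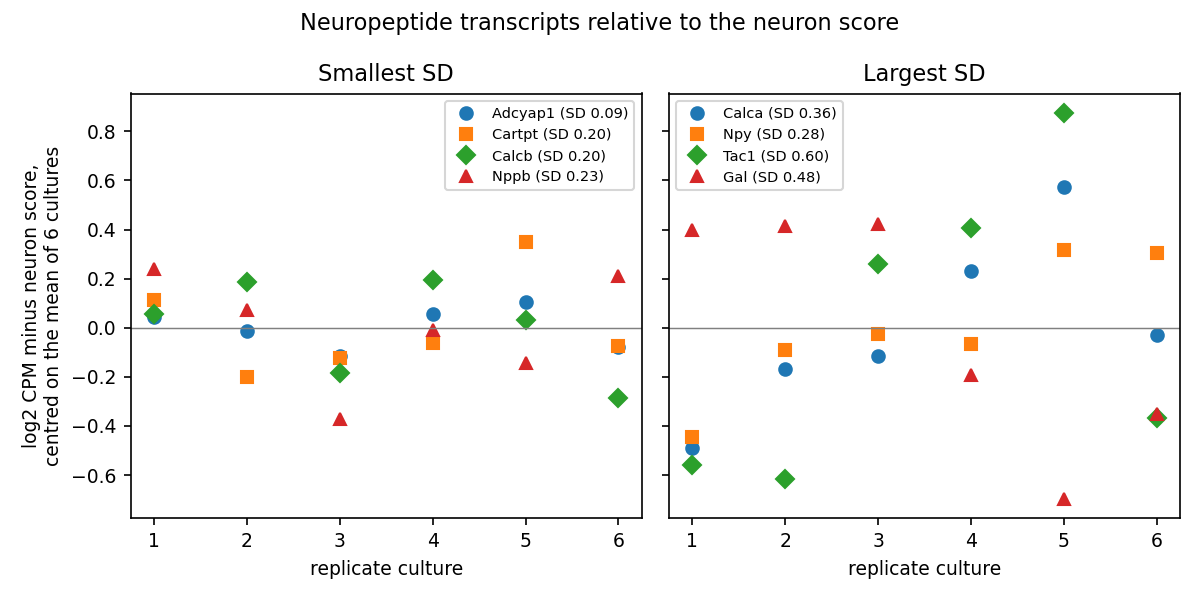
Log2 CPM of each gene minus the neuron score of the same library, centred on the gene's mean over 6 cultures, for the 4 genes named at left and the 4 at right; each point is 1 culture. Adcyap1 stays close to 0 (SD 0.0855), while in replicate 5 Tac1 and Calca lie at the top of the right panel and Gal at its foot.

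That library was also at an extreme for markers of other cell types, for some lists by little. Macrophage genes, for one, summed to 94.2 CPM in replicate 4. In replicate 5 the summed fibroblast genes stood at 10068 CPM, the mural genes at 1510 CPM, the endothelial genes at 114 CPM and the macrophage genes at 111 CPM, each the highest of the 6. Glial genes at 4094 CPM and neuron genes at 1099 CPM were at their lowest there. Over the 6 cultures the correlation with the macrophage score was r = 0.832 for Tac1 (exact permutation p = 0.0514, adjusted 0.336; rho = 0.714, exact p = 0.136, adjusted 0.443) and r = 0.746 for Calca (exact permutation p = 0.0917, adjusted 0.42; rho = 0.543, exact p = 0.297, adjusted 0.624). Without replicates 1 and 2, these were 0.825 for Tac1 and 0.220 for Calca. With the fibroblast score, Nppb had r = -0.814 (exact permutation p = 0.0514, adjusted 0.251; rho = -0.83, exact p = 0.0583, adjusted 0.350), which was -0.247 without replicates 1 and 5. No gene of the 8 had a positive relation at an unadjusted exact p under 0.05 with the glia, fibroblast or macrophage scores, against 8.63%, 11.4% and 7.72% of all genes. With only 8 genes, a count of 0 lies close to such shares. None had a negative relation at that p either, and the share of all genes with a negative one was not computed. The part of these cells in the neuropeptide levels was not tested.

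A list of nociceptor genes, called the peptidergic nociceptor list here, gave another yardstick. Prdm12, Scn10a and Scn9a in it are not confined to peptidergic neurons. The list held Trpv1, the capsaicin receptor, Gfra3, the artemin receptor, the transcription factor Prdm12 and the sodium channel genes Scn10a and Scn9a. All 5 reached a CPM of at least 1 in all cultures. Gfra3 averaged 106 ± 35.0 CPM, Scn10a 83.5 ± 35.6 CPM and Trpv1 32.2 ± 12.4 CPM (SD, n = 6). The summed list was lowest in replicate 2 (178 CPM) and highest in replicate 3 (427 CPM), as was the sum of the neuropeptide genes. Of the list of non-peptidergic nociceptors, 3 of 4 genes passed. Ret, the receptor of GDNF family ligands, averaged 159 ± 45.2 CPM, the ATP-gated channel gene P2rx3 133 ± 52.0 CPM and the neurturin co-receptor gene Gfra2 98.6 ± 24.1 CPM, whereas Mrgprd, which defines a class of these neurons, averaged 0.521 ± 0.410 CPM (SD, n = 6).

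With the peptidergic nociceptor score, a comparison added after the neuron score had been examined, 3 of 8 genes had a positive correlation with an unadjusted exact p under 0.05, against 3.2% of all 14998 genes, and none passed after adjustment. Calca had r = 0.969 (exact permutation p = 0.00139, the smallest 720 pairings can give, adjusted 0.694), and its order over the cultures was that of the score (rho = 1, exact p = 0.00278, adjusted 0.868). Tac1 had r = 0.876 (exact permutation p = 0.0181, adjusted 0.811) and rho = 0.943 (exact p = 0.0167, adjusted 0.868). Npy had r = 0.871 (exact permutation p = 0.0208, adjusted 0.820) and rho = 0.886 (exact p = 0.0333, adjusted 0.868). Without replicates 2 and 3, the farthest from the median, r was 0.840 for Calca, 0.605 for Npy and 0.252 for Tac1. Those libraries had the lowest and the highest score, and leaving them out narrows its range. A lower r there cannot show that a relation rested on them. With 1 culture left out, r for Tac1 ran from 0.691 to 0.959. Only Calca kept an unadjusted exact p under 0.05 when each of the 6 cultures was left out in turn. Gal had r = 0.310 (exact permutation p = 0.556, adjusted 0.999) and rho = 0.0857 (exact p = 0.919, adjusted 0.989). In all, 40 relations of 8 genes with 5 scores were computed, and the labels named no batch within which to repeat them. The list of non-peptidergic nociceptors was not among these scores. Whether any relation was particular to peptidergic neurons was not tested.

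**Figure D4:**
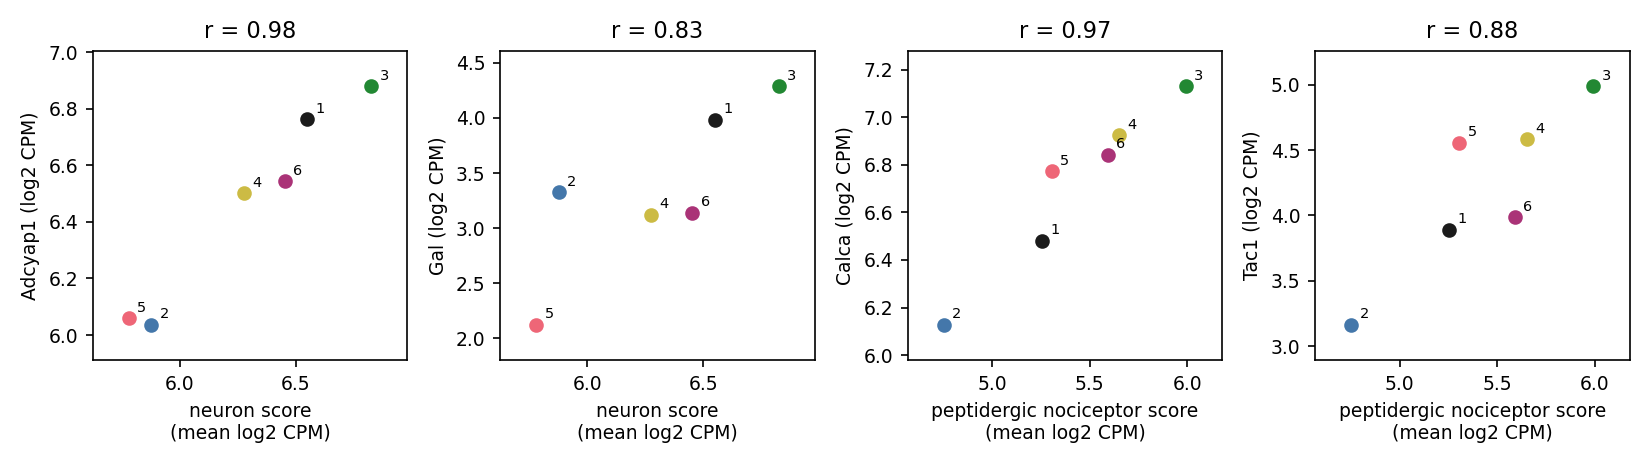
Log2 CPM of Adcyap1 and Gal against the neuron score, and of Calca and Tac1 against the peptidergic nociceptor score, both in mean log2 CPM; each numbered point is 1 of 6 cultures. Adcyap1 (r = 0.983) and Calca (r = 0.969) lie close to a line, and replicate 5 lies low for Gal.

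The machinery that makes and stores peptides was present. All 10 genes of peptide processing reached a CPM of at least 1 in all cultures, with a median of 6.98 CPM per kb. The highest 3 in CPM were Cpe, the carboxypeptidase that trims precursors, at 675 ± 149.5 CPM, Pam, the amidating enzyme, at 399 ± 24.1 CPM, and Furin, a convertase made by most cells, at 188 ± 19.1 CPM (SD, n = 6). The convertases of regulated secretion were lower, with Pcsk2 at 29.9 ± 8.83 CPM and Pcsk1 at 11.2 ± 4.27 CPM (SD, n = 6). Cpe and Pam are also made outside neurons, and the sum of this list was highest in replicate 1 and lowest in replicate 6, unlike the neuropeptide sum.

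Of 10 genes of dense-core vesicles, 9 passed, with a median of 7.998 CPM per kb over the list. The sum of the list was lowest in replicate 2 (496 CPM) and highest in replicate 3 (853 CPM), the same 2 libraries as for the neuropeptide sum. Taken singly, only Chga, Scg3, Cadps and Ptprn2 had both extremes in these libraries. Syt4, for one, was lowest in replicate 5 (184 CPM) and highest in replicate 1 (378 CPM). Syt4, a vesicle synaptotagmin, averaged 273 ± 77.5 CPM and Ptprn, a membrane protein of these vesicles, 105 ± 22.2 CPM (SD, n = 6). The granins Scg3, Scg2 and Vgf averaged 68.6 ± 14.01, 55.3 ± 17.7 and 60.4 ± 17.4 CPM, while Chga and Chgb averaged 4.88 ± 1.45 and 3.94 ± 1.12 CPM (SD, n = 6). The single gene under the limit was Cadps2 at 0.861 ± 0.486 CPM.

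Among 7 peptidases that break peptides down, 6 passed. Ece1, an endothelin-converting enzyme that also degrades neuropeptides, averaged 238 ± 23.3 CPM, although its counts were fractions in all 6 libraries. Mme, or neprilysin, which degrades substance P and natriuretic peptides, averaged 11.4 ± 3.53 CPM (SD, n = 6). Dpp4, which trims neuropeptide Y, was at 0.238 ± 0.216 CPM (SD, n = 6).

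Outside the 10 genes, few neuropeptide precursors reached a CPM of at least 1 in all cultures. Of 46 others, 6 did so, against 30.4% of all genes and 55.8% of protein-coding genes, while 15 had no count at all and 25 in total had at most 3 counts in every library, and the median of the list was 0.0353 CPM per kb. Nts, the neurotensin precursor, was the highest at 42.0 ± 21.4 CPM, or 33.7 ± 17.2 CPM per kb, with 72.6, 36.2, 57.0, 32.9, 10.1 and 43.2 CPM in replicates 1 to 6. As with Gal and the summed neuron genes, its lowest culture was replicate 5. Ucn2, a urocortin, averaged 19.8 ± 4.97 CPM, and Adm, the adrenomedullin precursor of vascular and stromal cells, 8.74 ± 6.10 CPM, with 1.18 CPM in replicate 1 and 18.1 CPM in replicate 5. Nmb, Penk and Pthlh averaged 3.86 ± 0.858, 3.55 ± 3.08 and 2.91 ± 0.560 CPM (SD, n = 6). The precursors Pdyn and Iapp, the latter a relative of Calca, had no count.

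**Figure D5:**
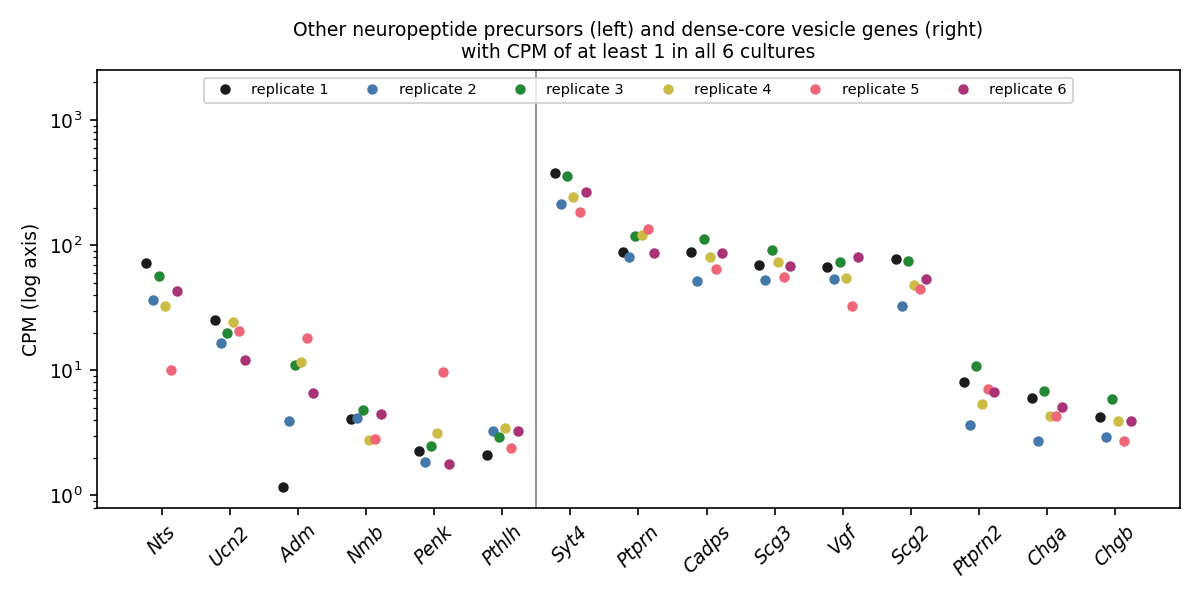
CPM (log axis) in each of 6 cultures for the 6 other neuropeptide precursors (left) and the 9 dense-core vesicle genes (right) that reached a CPM of at least 1 in all cultures; each point is a culture. Nts is highest on the left, with its lowest value in replicate 5, where Adm and Penk have their highest.

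Genes of the axon injury response were counted in every culture. All 8 of the list passed, with a median of 53.7 CPM per kb, beside 14.1 ± 7.11 for Gal and 2.51 ± 0.791 for Npy (SD, n = 6). Atf3, a transcription factor switched on in axotomised neurons, averaged 482 ± 146 CPM and was highest in replicate 1 (714 CPM), and Jun averaged 616 ± 80.2 CPM. Both are also induced in other cells under stress. Sprr1a, Gap43 and Ecel1, which are more typical of neurons, averaged 14.8 ± 6.27, 108 ± 34.0 and 127 ± 80.7 CPM (SD, n = 6). Sprr1a was lowest in replicate 5, at 4.39 CPM, as were Gal and Nts. So were Gap43, at 58.7 CPM, and the summed neuron genes, at 1099 CPM, so the low was not particular to these genes. Ecel1 lay between 69.7 CPM (replicate 6) and 270.2 CPM (replicate 1).

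The genes whose levels ran most like those of each neuropeptide gene were taken from the other 14997 genes tested, by Pearson's r of log2(CPM + 0.5) over the 6 cultures. With so few libraries such likeness is easily reached: r of at least 0.95 was shared by 18 genes for Npy and up to 154 genes for Adcyap1. For Calca the closest were Slc7a7 (r = 0.995), Ccdc85a and Dtd1, and for Calcb they were Arrdc2 (r = 0.997), Mlh3 and Ivns1abp. Those of Tac1 were Pacsin1 (r = 0.990), Fam131b and LOC108167377, and those of Adcyap1 were Zfp938 (r = 0.997), Gdap1 and Rab6b. For Gal they were Chka (r = 0.997), Baalc and Brf1, and for Npy they were Eif2ak3 (r = 0.994), Disp3 and Gm15050. Nppb ran most like Synj2bp (r = 0.990), Acp2 and Dtwd2. Cartpt ran most like Trak2 (r = 0.995), Gm14410 and Chga, the last of these a gene of the dense-core vesicle list. These are descriptions of 6 points that share their libraries and depth.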

How the data were processed

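Libraries were stranded and poly-A selected (500 ng RNA input, 15 cycles of PCR), per the labels' protocols. The authors deposited estimated counts per gene, unscaled, partly fractional, with a combined exon length. The submitters' processing notes name cutadapt 2.5, STAR 2.7.2b, featureCounts 1.6.4 and the build GRCm38.p6; handling of strand and of reads matching several genes is not given in the sources used here. The table held 0 further columns of per-sample values.

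CPM were counts over library totals, from 20070639 to 22968642; per-kb values were divided by the combined exon length. Counts were rounded for use in R 4.3.3 with edgeR 4.0.16 and, as an alternative scaling, DESeq2 1.42.0. The filterByExpr function kept 14998 genes, and TMM factors lay between 0.976 and 1.02. Variation was tested by chi-square against scaled library sizes, checked on simulated data, and adjusted by Benjamini-Hochberg over all genes kept. Pairs of genes were compared by exact sign-flip permutation over 64 patterns, and relations by exact permutation over 720 pairings. Relations were adjusted over all 14998 genes in place of the 8 tested, departing from the written plan. With 1 group, there was no contrast for a differential test. The permutation p-values took the cultures as units, whereas the chi-square p compared the spread between cultures with counting noise alone.

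Members and lists were chosen with earlier results of these data known. Named genes were the 10 members, list genes (by default the highest and those over 1 CPM in all libraries) and the 3 genes most like each counted member. Alternatives changed scaling, pseudocount, filter, length and the libraries used. A further gene of the nociceptor list is not reported here and was left out of its score.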

Additional observations from a re-analysis of the deposited data

How the results depend on the processing

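The number of pairs with a constant direction changed little: 23 to 25 of the 28 pairs pointed the same way in all libraries used under each alternative. With 5 or 4 libraries the exact sign-flip test cannot pass. The order itself changed more. Adcyap1, Tac1 and Gal changed places with some replicates left out. Without division by exon length the number was again 23, but Calcb rose above Gal and Cartpt, and Nppb stood above Npy. The number of detected genes was 7 or 8, and the number varying beyond counting noise 7 or 8, under each alternative; without replicates 1 and 5, a choice made after seeing the data, Nppb did not pass. The number of genes with a positive relation to the neuron score at an unadjusted exact p under 0.05 was 5, was 5 with library totals or another pseudocount, lay between 1 and 4 with 1 replicate left out, and was 3 without replicates 1 and 5. It was 1 without replicate 1, 4 without replicate 2, and 2 without replicate 3, 4, 5 or 6. With the peptidergic nociceptor score, all of whose alternatives were added afterwards, the number was 3 and lay between 1 and 3 with 1 replicate left out; it was 1 without replicate 2 or replicate 3. The relation of Gal to that score turned from r = 0.310 to -0.162 without replicate 3, and the range over the 6 such fits was -0.162 to 0.471. With fewer libraries the smallest p rises; other causes were not tested. Depth limits Npy and Nppb, at 20 to 72 counts a library, and Sst and Vip, at 0. No paired contrast between groups was possible because there was a single group, and genes were paired only within libraries.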
